A study of Mus musculus with 32 samples.

Results

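Nlrp4a, Nlrp4b, Nlrp4c, Nlrp4e, Nlrp4f, Nlrp9a, Nlrp9b, Nlrp9c and Nlrp14 are mouse NLRP genes known for their expression in the oocyte. They were taken by name: a gene row was a member when its Ensembl identifier, version removed, carried one of these symbols in the GENCODE annotation of mm10. All 9 were found among 55335 gene rows, and the identifier version was the same in the annotation for 9 of 9. The study sequenced RNA from mouse oocytes, embryos made by in vitro fertilisation and embryonic stem cells, in 32 libraries that form 16 groups of 2. Oocyte and embryo RNA went through Smart-Seq2, a method for small inputs that copies RNA from its poly(A) tail, and stem cell RNA through poly(A) capture and a TruSeq kit. No label ties the 2 libraries of a group to separate animals or cultures, so each p-value measures the spread between these libraries, which may be technical.

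Growing oocytes came from females at postnatal day 14 (P14). They carried either an H3.3K4M transgene (P14 H3.3K4M), which encodes histone H3.3 with methionine in place of lysine 4, or an H3.3WT transgene (P14 H3.3WT). The sources used here name neither the promoters of these transgenes nor the strains nor the number of oocytes or embryos in a library. Mature oocytes arrested at metaphase II (MII) came from wild-type females of 12 months (MII 12m) or 8 weeks (MII 8w). Untreated 2-cell embryos came from wild-type eggs of 12-month females (2C 12m). The other 2-cell embryos came from wild-type females of 6 to 8 weeks and were cultured with aphidicolin, an inhibitor of DNA replication (2C APH), cycloheximide, which blocks translation (2C CHX), MG132, which inhibits the proteasome (2C MG132), or the vehicle DMSO (2C DMSO). The 4-cell embryos had the same maternal age and the same agents (4C APH, 4C CHX, 4C MG132 and 4C DMSO). Wild-type AB2.2 cells, a mouse embryonic stem cell line, received cycloheximide, MG132 or DMSO (ESC CHX, ESC MG132 and ESC DMSO).

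NLRP proteins carry an ATP-binding NACHT domain and leucine-rich repeats. Some, such as Nlrp3, assemble inflammasomes in immune cells, while a reproductive branch is made chiefly by oocytes and has been duplicated in the mouse. Its RNA is stored in the growing oocyte and inherited by the embryo, and most maternal RNA is degraded around activation of the embryo's genome, which in the mouse falls mainly at the 2-cell stage. Nlrp14 is needed in mouse females for development of their embryos and has been reported to act with Uhrf1. Nlrp4f has been reported as a member of the subcortical maternal complex, a protein assembly under the egg membrane. Nlrp9b also works outside the germ line, with the helicase Dhx9, as a sensor of viral RNA in mouse intestine.

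In mm10, 8 of the 9 genes lie on chromosome 7 and Nlrp4f lies on chromosome 13, and each is annotated as protein coding. Nlrp9c (chr7:26322473-26403700, minus strand), Nlrp4a (chr7:26435113-26476142, plus strand) and Nlrp9a (chr7:26535023-26575615, plus strand) follow each other. On the plus strand of the same chromosome lie Nlrp4c (chr7:6045161-6105150), Nlrp4b (chr7:10687789-10730168), Nlrp9b (chr7:19991465-20073306), Nlrp4e (chr7:23301192-23362277) and Nlrp14 (chr7:107166990-107198102). Nlrp4f runs on the minus strand at chr13:65177111-65205977. Of the stretches of 50 bases in the annotated transcripts, 36.7% of those of Nlrp4e also occur in transcripts of another gene, among them its near copies Gm16443, Gm8486, Gm8685 and Gm8728. The share is 10.7% for Nlrp4c, 7.79% for Nlrp9b, 6.07% for Nlrp9a, 5.95% for Nlrp4f, 2.61% for Nlrp9c, 2.56% for Nlrp4a and 0 for Nlrp4b and Nlrp14. The sources used here do not say how reads with more than one match were counted, so the Nlrp4e counts in particular are uncertain. Nlrp9b also shares 136 exonic bases with the pseudogene Gm18877 on its own strand, so counts from there are uncertain.

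The RefSeq promoter table (GRCm38.p6) held 8 of the 9 genes. The 250 bases before the start are shown for the Nlrp9 genes, whose responses to cycloheximide are compared later in the text, and for Nlrp4a and Nlrp4b, which rose together with that drug. Capitals mark matches, on either strand, to a TATA box (letters TATAAA), to a core that the oocyte factor Nobox binds (letters TAATTG) or to the binding site of the factor NF-Y (letters CCAAT), and no matches overlapped in these windows. Each sequence reads 5′ to 3′ on the strand of its gene, at chr7:26534773-26535022 (plus) for Nlrp9a, chr7:20007773-20008022 (plus) for Nlrp9b, whose RefSeq start lies inside the span given above, chr7:26403701-26403950 (minus) for Nlrp9c, chr7:26435364-26435613 (plus) for the downstream of the starts listed for Nlrp4a and chr7:10687543-10687792 (plus) for the upstream of those listed for Nlrp4b.
Nlrp9a: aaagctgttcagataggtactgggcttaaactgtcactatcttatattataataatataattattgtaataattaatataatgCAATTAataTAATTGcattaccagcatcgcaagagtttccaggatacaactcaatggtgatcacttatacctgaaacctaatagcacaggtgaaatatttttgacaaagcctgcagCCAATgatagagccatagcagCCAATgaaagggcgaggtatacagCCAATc
Nlrp9b: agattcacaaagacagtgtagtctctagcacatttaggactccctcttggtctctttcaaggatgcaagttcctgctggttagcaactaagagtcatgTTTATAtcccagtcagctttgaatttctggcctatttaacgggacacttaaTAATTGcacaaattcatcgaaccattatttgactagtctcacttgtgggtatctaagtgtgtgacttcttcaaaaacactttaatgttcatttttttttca
Nlrp9c: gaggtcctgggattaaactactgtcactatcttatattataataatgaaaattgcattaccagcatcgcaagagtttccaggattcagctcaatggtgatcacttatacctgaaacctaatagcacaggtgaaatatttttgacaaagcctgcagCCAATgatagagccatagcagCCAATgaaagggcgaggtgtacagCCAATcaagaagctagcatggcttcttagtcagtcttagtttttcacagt
Nlrp4a: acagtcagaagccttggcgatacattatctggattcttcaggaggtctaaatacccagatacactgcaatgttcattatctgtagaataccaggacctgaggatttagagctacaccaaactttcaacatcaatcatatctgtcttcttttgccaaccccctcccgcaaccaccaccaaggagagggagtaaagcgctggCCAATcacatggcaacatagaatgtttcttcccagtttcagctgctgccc
Nlrp4b: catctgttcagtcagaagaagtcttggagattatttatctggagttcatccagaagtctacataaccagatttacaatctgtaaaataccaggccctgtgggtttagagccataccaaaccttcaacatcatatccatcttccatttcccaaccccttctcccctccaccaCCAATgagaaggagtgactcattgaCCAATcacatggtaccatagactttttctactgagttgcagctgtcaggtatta
In a global alignment the Nlrp9a and Nlrp9c windows were 65.7% identical, while that of Nlrp9b was 46.8% identical to Nlrp9a and 45.1% to Nlrp9c. The printed Nlrp4a and Nlrp4b windows were 68.4% identical, and the other 3 pairings of their listed starts 47.4%, 48.2% and 60.2%. Over all 43 pairs of windows of different members the identity ran from 41.4% to 68.4%. CCAAT stood in a window of 6 of the 8 genes and in 33.8% of 32851 windows of this length over all genes, and not in those of Nlrp9b or Nlrp4f. For Nlrp4a it stood only in the printed window, which lies inside the gene's span, and not in that of the upstream start. The gene count takes any window of a gene with more than 1 listed start, while the share is over single windows. TAATTG stood in the windows of Nlrp9a and Nlrp9b and in 7.17% of all windows. TATAAA stood in that of Nlrp9b and in 12.4% of all windows, and the E-box CACGTG in none of the 8 and in 6.02% of all windows. A and T made up 65.2% of the Nlrp9a window, 62.8% of that of Nlrp9b and 59.6% of that of Nlrp9c, against a median of 47.6% over all windows. In the windows of the other members the share ran from 46.0% (Nlrp4c) to 61.6% (Nlrp4f), and only that of Nlrp4c lay below the median.

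Total counts ran from 14313718 to 34713159 per library. Counts of replicate libraries differed by more than sampling noise in each group. Repeat elements, counted beside the genes, took 33.1% of counts in both P14 H3.3K4M libraries and 30.1% and 31.9% in the P14 H3.3WT libraries. In the MII libraries they took 4.63% to 6.86%. They took 8.81% and 12.7% in 2C CHX and 10.5% and 16.2% in 2C MG132 libraries, against 19.9% and 20.8% in 2C DMSO libraries. Library sizes in the main tests covered genes and repeats. The summed level of 9 oocyte marker genes, as CPM of total counts, was at or above 30902 in the P14 libraries, 11427 to 12487 in the MII libraries, 4355 to 10609 at 2 cells, 94.3 to 305 at 4 cells and 7.83 to 10.7 in the stem cells. The 14 cumulus and granulosa markers summed to 7.21 to 10.7 CPM in the P14 libraries and to 78.6 to 157 in the MII libraries. Much of the MII sum came from Cyp19a1, at 63.7 to 98.9 CPM after the scaling between libraries described below. Gja1, also on the list, stood at 37.35 and 0.131 CPM in MII 8w replicates 1 and 2 and at 27.2 and 11.2 in MII 12m libraries. Inha, another of the list, stood at 0 to 0.496 CPM in the MII libraries. Fewer cells of a type and less RNA per cell cannot be told apart in these bulk libraries.

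Nlrp14 was the most abundant of the 9 transcripts in growing oocytes, and Nlrp9c or Nlrp4f had the highest mean level in each mature oocyte and embryo group. Levels between genes were compared as CPM, the usual depth-scaled read count, per kilobase of exon (CPM per kb), with library sizes scaled by TMM, a trimmed mean of ratios between libraries. In P14 H3.3WT oocytes Nlrp14 stood at 1835 ± 204 CPM per kb (mean ± SD, n = 2 here and for each level that follows), Nlrp4f at 199.9 ± 37.7 and Nlrp9c at 143 ± 6.79. In MII 8w oocytes Nlrp9c stood at 601 ± 202 CPM per kb, Nlrp4f at 324 ± 14.5, Nlrp14 at 180.0 ± 97.4, Nlrp4a at 155 ± 19.9, Nlrp9a at 133 ± 3.80, Nlrp4b at 120.0 ± 9.23, Nlrp9b at 71.7 ± 27.5 and Nlrp4e at 65.6 ± 8.25. Nlrp4c was the lowest there, at 3.64 ± 0.812 CPM per kb. In 2C DMSO embryos Nlrp4f stood at 395 ± 72.8 and Nlrp9c at 278 ± 129.8 CPM per kb, values that overlapped within their SDs. At 4C DMSO the highest were Nlrp9c at 5.30 ± 0.460 and Nlrp14 at 5.27 ± 1.39 CPM per kb.

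**Figure D1:**
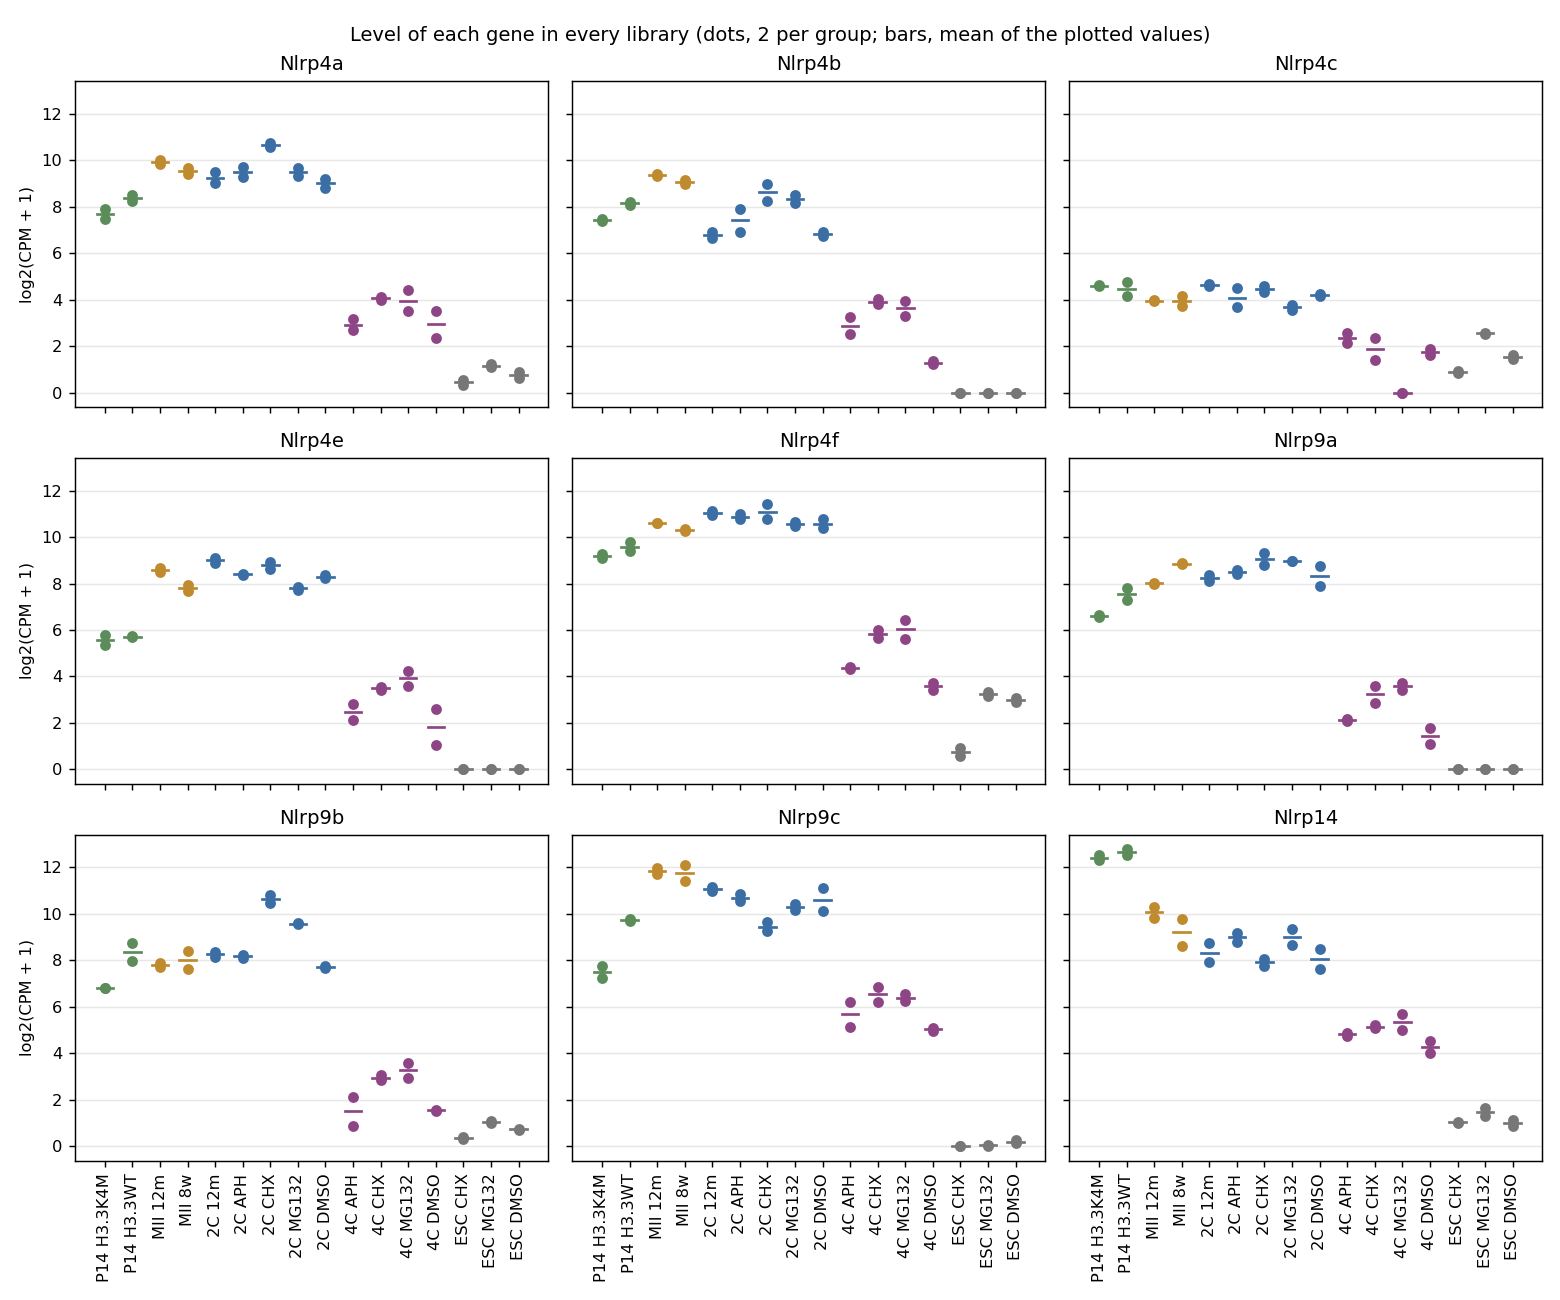
Level of each of the 9 genes in each of the 32 libraries, as log2(CPM + 1) on the vertical axis, by group on the horizontal axis (2 dots per group, bar at the mean of the plotted values). Nlrp14 is highest in the P14 groups, the other genes have their highest group mean in an MII or 2-cell group, and each gene is lower in 4C DMSO than in 2C DMSO.

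As a share of the summed CPM per kb of the 9 genes, Nlrp14 made up 80.1% and 83.7% in the P14 H3.3K4M libraries and 73.5% and 75.0% in the P14 H3.3WT libraries. It made up 13.4% and 18.3% in MII 12m oocytes and 6.59% and 15.4% in MII 8w oocytes. Nlrp9c was the largest share in both mature groups, with 29.6% and 35.3% in MII 12m and 28.2% and 44.1% in MII 8w. At 2 cells Nlrp4f was the largest share in each group, between 26.7% and 37.6%. Nlrp9b held 22.2% and 22.9% in 2C CHX embryos and 14.5% and 14.96% in 2C MG132 embryos, against 4.38% and 5.80% in 2C DMSO embryos. Nlrp9c held 6.18% on average in 2C CHX embryos, against 23.9% in 2C DMSO embryos. For both genes the treated and vehicle libraries stood apart, Nlrp9b above and Nlrp9c below.

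**Figure D2:**
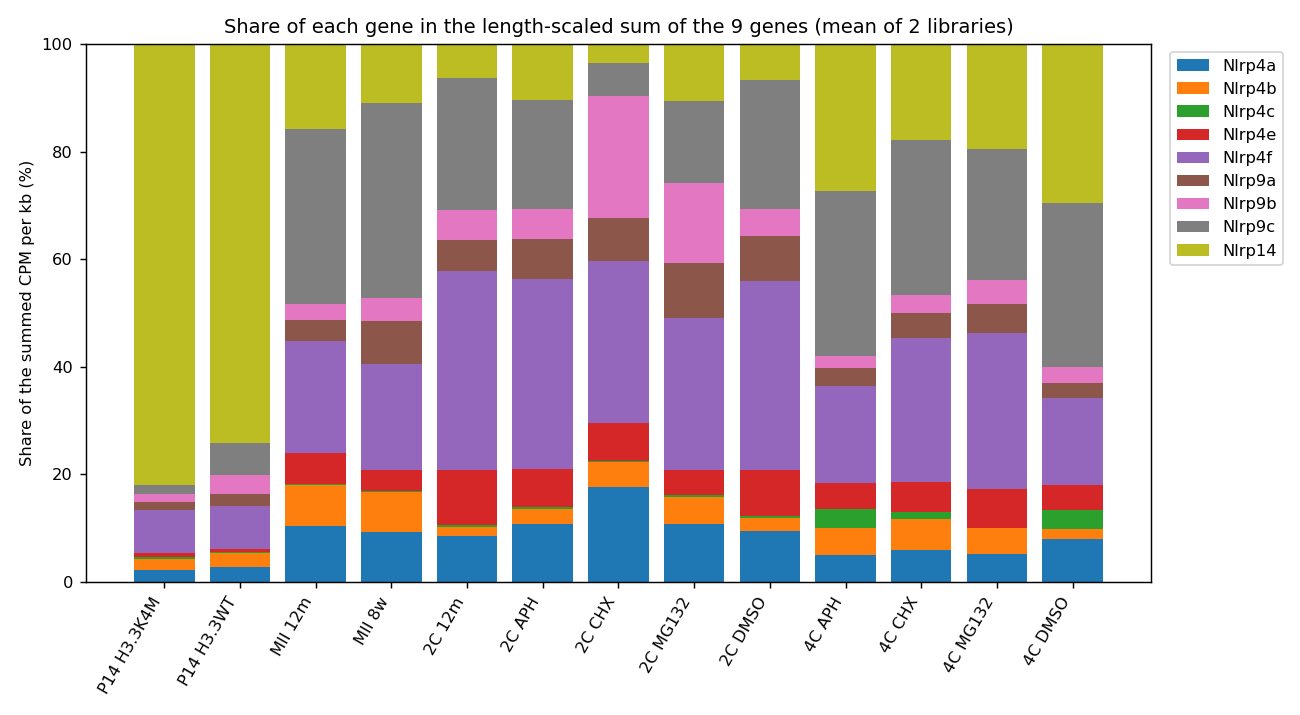
Share of each gene in the summed CPM per kb of the 9 genes, in % (mean of 2 libraries), for the 13 oocyte and embryo groups. Nlrp14 fills 74.2% of the bar in P14 H3.3WT and 10.97% in MII 8w, and the Nlrp9b band is widest in 2C CHX, at 22.5%.

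Ordered by mean CPM over the 13 oocyte and embryo groups, Nlrp14 was highest in P14 H3.3WT and Nlrp9c in MII 12m oocytes. Nlrp4a, Nlrp4f, Nlrp9a and Nlrp9b were highest in 2C CHX embryos, Nlrp4e and Nlrp4c in 2C 12m embryos and Nlrp4b in MII 12m oocytes. The sum of the 9 genes was 1992 and 1786 CPM per kb in P14 H3.3K4M and 2695 and 2254 in P14 H3.3WT libraries. It was 1927 and 1925 in MII 12m and 1620.2 and 1686 in MII 8w libraries. At 2 cells the sums were 2149 and 1654 in 2C CHX and 929 and 1333 in 2C DMSO libraries, and at 4 cells they were 56.6 and 51.9 in 4C CHX, 68.6 and 48.1 in 4C MG132 and 14.7 and 20.8 in 4C DMSO libraries. The 4-cell sums lay far below the 2-cell sums in each of these groups. In the order of levels each gene has 12 pairs of neighbouring groups, and in 4 to 8 of these the libraries overlapped. Nlrp4c varied least before the 4-cell stage, with library levels between 10.9 and 26.5 CPM over these 9 groups.

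The 9 genes split between growing and mature oocytes. Nlrp14 fell and Nlrp4e, Nlrp9c, Nlrp9a, Nlrp4a and Nlrp4b rose. Nlrp14 had 880.2 and 393 CPM in MII 8w oocytes, against 7002 and 5981 CPM in P14 H3.3WT oocytes. The groups did not overlap, and the level was 10.2-fold lower in MII 8w (log2 fold change -3.35 ± 0.42, adjusted p = 3.5e-06, edgeR quasi-likelihood test with Benjamini-Hochberg adjustment over all genes tested, as throughout). Nlrp4e had 203 and 243 CPM in MII 8w oocytes, against 51.7 and 50.6 CPM in P14 H3.3WT oocytes (log2 fold change 2.12 ± 0.43, adjusted p = 0.00074). Nlrp9c had 2715 and 4414 CPM in MII 8w oocytes, against 879 and 822 CPM in P14 H3.3WT oocytes (log2 fold change 2.07 ± 0.38, adjusted p = 0.00025). Both groups of libraries stood apart for these genes, which were 4.36-fold higher and 4.19-fold higher in MII 8w.

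The other genes called between MII 8w and P14 H3.3WT oocytes changed less. Nlrp9a differed by 1.31 ± 0.35 on the log2 scale (adjusted p = 0.0067), Nlrp4a by 1.17 ± 0.37 (adjusted p = 0.020) and Nlrp4b by 0.93 ± 0.34 (adjusted p = 0.047). Nlrp4f did not pass (log2 fold change 0.69 ± 0.29, adjusted p = 0.079), but it did, under 6 alternatives, the lowest log2 fold change among them being 0.87: DESeq2 size factors (adjusted p = 0.012), DESeq2's Wald test (0.0014), no low-count filter (0.033), the stricter filter (0.0088), library sizes from genes only (0.020) and only the compared libraries (0.024). Neither Nlrp4c (log2 fold change -0.56 ± 0.45) nor Nlrp9b (-0.33 ± 0.41) passed, and their libraries overlapped. The 5 higher genes of 9 compare with 11.2% of 27657 genes tested that were higher, and the 1 lower gene with 16.8% lower. The median log2 fold change was 0.93 over the 9 genes and -0.09 over all genes tested. Stage, maternal age and the H3.3WT transgene differ together between these groups and cannot be told apart. The Nlrp4a call was lost without P14 H3.3WT replicate 1 (adjusted p = 0.06003), P14 H3.3WT replicate 2 (0.1543) or MII 8w replicate 1 (0.1015). The Nlrp4b call was lost without P14 H3.3WT replicate 1 (adjusted p = 0.1514), P14 H3.3WT replicate 2 (0.2284), MII 8w replicate 1 (0.1741) or MII 8w replicate 2 (0.0986), and the Nlrp9a call without P14 H3.3WT replicate 2 (adjusted p = 0.1158).

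From the mature oocyte to the 2-cell embryo, Nlrp4b fell in young and in 12-month material. Nlrp4b had 119 and 107 CPM in 2C DMSO embryos, against 568 and 509.8 CPM in MII 8w oocytes, and was 4.77-fold lower (log2 fold change -2.25 ± 0.35, adjusted p = 0.00013). It had 98.5 and 121 CPM in 2C 12m embryos, against 678 and 637 CPM in MII 12m oocytes, and was 5.99-fold lower (log2 fold change -2.58 ± 0.36, adjusted p = 5.6e-05). The libraries of embryo and oocyte did not overlap at either age. Nlrp14 fell too, at -1.21 ± 0.39 on the log2 scale in the young pair of groups (adjusted p = 0.036) and -1.70 ± 0.39 in the 12-month pair (adjusted p = 0.0063). Nlrp9c fell in the young pair (log2 fold change -1.11 ± 0.37, adjusted p = 0.041) and did not pass in the 12-month pair (log2 fold change -0.78 ± 0.37, adjusted p = 0.19). The 3 lower genes of 9 in the young pair compare with 6.82% of 27657 genes, and the 2 in the 12-month pair with 4.99%.

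The remaining genes did not pass in either pair. In the young pair Nlrp4a differed by -0.53 ± 0.36, Nlrp9a by -0.48 ± 0.34, Nlrp9b by -0.35 ± 0.41, Nlrp4c by 0.26 ± 0.45, Nlrp4e by 0.49 ± 0.42 and Nlrp4f by 0.29 ± 0.29 on the log2 scale. The median over all genes tested was 0.51 in the young pair, and it moved by -0.14 with DESeq2 size factors and by -0.12 with library sizes from genes only. The 12-month change minus the young change passed for 0 of the 9 genes, against 0.0434% of genes tested, with 0 of 9 at an unadjusted p under 0.05. In the young pair the Nlrp14 call was lost without 2C DMSO replicate 1 (adjusted p = 0.2895) or MII 8w replicate 1 (0.5015), where the log2 fold change was -0.50 without MII 8w replicate 1, and with only the compared libraries (adjusted p = 0.085). The Nlrp9c call was lost without 2C DMSO replicate 1 (adjusted p = 0.3441) or MII 8w replicate 2 (0.3455), and with only the compared libraries (adjusted p = 0.092), and its log2 fold change was -1.69 without 2C DMSO replicate 2. In the 12-month pair Nlrp9c passed with no low-count filter (adjusted p = 0.043) and with only the compared libraries (0.0074). In the 12-month pair the Nlrp14 call was lost without 2C 12m replicate 1 (adjusted p = 0.1152) or MII 12m replicate 2 (0.07219).

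The drug-treated 2-cell embryos were also set against the same MII 8w oocytes, which these comparisons share. In 2C CHX embryos Nlrp9b stood above the oocyte (log2 fold change 2.58 ± 0.43, adjusted p = 0.00027), and Nlrp9c (log2 fold change -2.35 ± 0.38, adjusted p = 0.00021) and Nlrp14 (log2 fold change -1.41 ± 0.39, adjusted p = 0.019) stood below it. Nlrp4b, which fell in 2C DMSO embryos, did not pass in 2C CHX embryos (log2 fold change -0.42 ± 0.34, adjusted p = 0.49). In 2C MG132 embryos Nlrp9b was higher (log2 fold change 1.52 ± 0.41, adjusted p = 0.019) and Nlrp9c lower (log2 fold change -1.49 ± 0.37, adjusted p = 0.010) than in MII 8w oocytes. In 2C APH embryos Nlrp4b (log2 fold change -1.59 ± 0.35, adjusted p = 0.0034) and Nlrp9c (log2 fold change -1.11 ± 0.37, adjusted p = 0.0495) were lower. The shares of all genes tested were 6.25% higher and 7.13% lower for 2C CHX, 6.56% and 4.76% for 2C MG132, and 5.69% lower for 2C APH. The Nlrp14 call in 2C CHX was lost without 2C CHX replicate 1 (adjusted p = 0.05289), 2C CHX replicate 2 (0.1397) or MII 8w replicate 1 (0.3695), with a log2 fold change of -0.71 without MII 8w replicate 1, and with only the compared libraries (adjusted p = 0.079). In 2C CHX, Nlrp4a passed above MII 8w with DESeq2's Wald test (adjusted p = 0.023) and with no low-count filter (0.018), and Nlrp4f with the Wald test (0.020). In 2C MG132 the Nlrp9b call was lost without 2C MG132 replicate 2 (adjusted p = 0.08832) or MII 8w replicate 2 (0.2172), and the Nlrp9c call without 2C MG132 replicate 1 (adjusted p = 0.09518), 2C MG132 replicate 2 (0.0594) or MII 8w replicate 2 (0.1505). In 2C APH the Nlrp4b call was lost without 2C APH replicate 2 (adjusted p = 0.09438), and the Nlrp9c call without 2C APH replicate 1 (adjusted p = 0.2371), 2C APH replicate 2 (0.1307) or MII 8w replicate 2 (0.3925) and with only the compared libraries (0.075).

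Each of the 9 genes fell between the 2-cell and the 4-cell embryo. Nlrp4f, the gene reported in the subcortical maternal complex, had 9.72 and 12.2 CPM in 4C DMSO embryos, against 1331 and 1729 CPM in 2C DMSO embryos. Nlrp9a had 1.12 and 2.48 CPM in 4C DMSO embryos, against 239 and 425 CPM in 2C DMSO embryos. The 4-cell libraries lay far below the 2-cell libraries for both, and the levels were 139-fold lower (log2 fold change -7.12 ± 0.37, adjusted p = 1.2e-10) and 184-fold lower (log2 fold change -7.53 ± 0.46, adjusted p = 2.6e-10). Nlrp14 had 15.2 and 22.1 CPM in 4C DMSO embryos, against 199 and 353 CPM in 2C DMSO embryos, and was 14.8-fold lower (log2 fold change -3.89 ± 0.43, adjusted p = 3.3e-07). Nlrp4c had 2.65 and 2.11 CPM in 4C DMSO embryos, against 17.1 and 17.9 CPM in 2C DMSO embryos, and was 7.33-fold lower (log2 fold change -2.87 ± 0.48, adjusted p = 6.5e-05). The other 5 genes were between 52.3-fold (Nlrp9c) and 109.8-fold (Nlrp9b) lower.

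The count of 9 of 9 lower compares with 24.1% of 27657 genes tested, and the median log2 fold change was -6.29 over the 9 genes and -0.33 over all genes tested. Library sizes from genes only moved the latter by -0.16. All 9 calls held under each alternative run. The summed oocyte markers, with 9 of 9 detected in both groups, stood at 106 and 123 CPM in 4C DMSO libraries, against 4355 and 4649 in 2C DMSO libraries. Their part in the fall of the NLRP genes was not tested.

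In growing oocytes the H3.3K4M transgene went with lower Nlrp9c, Nlrp9b, Nlrp9a, Nlrp4b and Nlrp4a. Nlrp9c had 215 and 151 CPM in P14 H3.3K4M oocytes, against 879 and 822 CPM in P14 H3.3WT oocytes. Nlrp9b had 110.2 and 112 CPM in P14 H3.3K4M oocytes, against 422 and 247 CPM in P14 H3.3WT oocytes. Nlrp9a had 93.5 and 99.3 CPM in P14 H3.3K4M oocytes, against 222 and 153 CPM in P14 H3.3WT oocytes. The mutant libraries lay below the H3.3WT libraries for each of these Nlrp9 genes, without overlap. The levels were 4.75-fold lower for Nlrp9c (log2 fold change -2.25 ± 0.21, adjusted p = 1.4e-05), 3.10-fold lower for Nlrp9b (log2 fold change -1.63 ± 0.23, adjusted p = 0.00028) and 2.00-fold lower for Nlrp9a (log2 fold change -1.002 ± 0.19, adjusted p = 0.0025).

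Of the Nlrp4 genes, Nlrp4b had 164 and 178 CPM in P14 H3.3K4M oocytes, against 296 and 270.0 CPM in P14 H3.3WT oocytes (log2 fold change -0.77 ± 0.16, adjusted p = 0.0044). Nlrp4a had 177 and 240.2 CPM in P14 H3.3K4M oocytes, against 366 and 299 CPM in P14 H3.3WT oocytes (log2 fold change -0.72 ± 0.19, adjusted p = 0.015). Neither gene's groups overlapped. Nlrp14, the most abundant of the 9, did not pass, at 5899 and 5063 CPM in P14 H3.3K4M oocytes against 7002 and 5981 CPM in P14 H3.3WT oocytes (log2 fold change -0.28 ± 0.20, adjusted p = 0.36). Nlrp4f (log2 fold change -0.45 ± 0.19, adjusted p = 0.10), Nlrp4e (log2 fold change -0.15 ± 0.18) and Nlrp4c (0.08 ± 0.23) did not pass either. The 5 lower genes of 9 compare with 13.7% of 15386 genes tested, and the median log2 fold change was -0.72 over the 9 genes and 0.00 over all genes. The Nlrp4a call was lost without P14 H3.3K4M replicate 1 (adjusted p = 0.0894) or P14 H3.3WT replicate 1 (0.1477). Summed oocyte markers were 30902 and 33294 CPM in P14 H3.3K4M libraries, against 32430.5 and 33713 in P14 H3.3WT libraries. The 14 cumulus and granulosa markers, with Amh, Has2, Ptx3 and Tnfaip6 at 0 in both groups, summed to 7.21 and 9.92 CPM in P14 H3.3K4M libraries, against 10.5 and 10.7 in P14 H3.3WT libraries. The part of either list in the NLRP values was not tested.

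**Figure D3:**
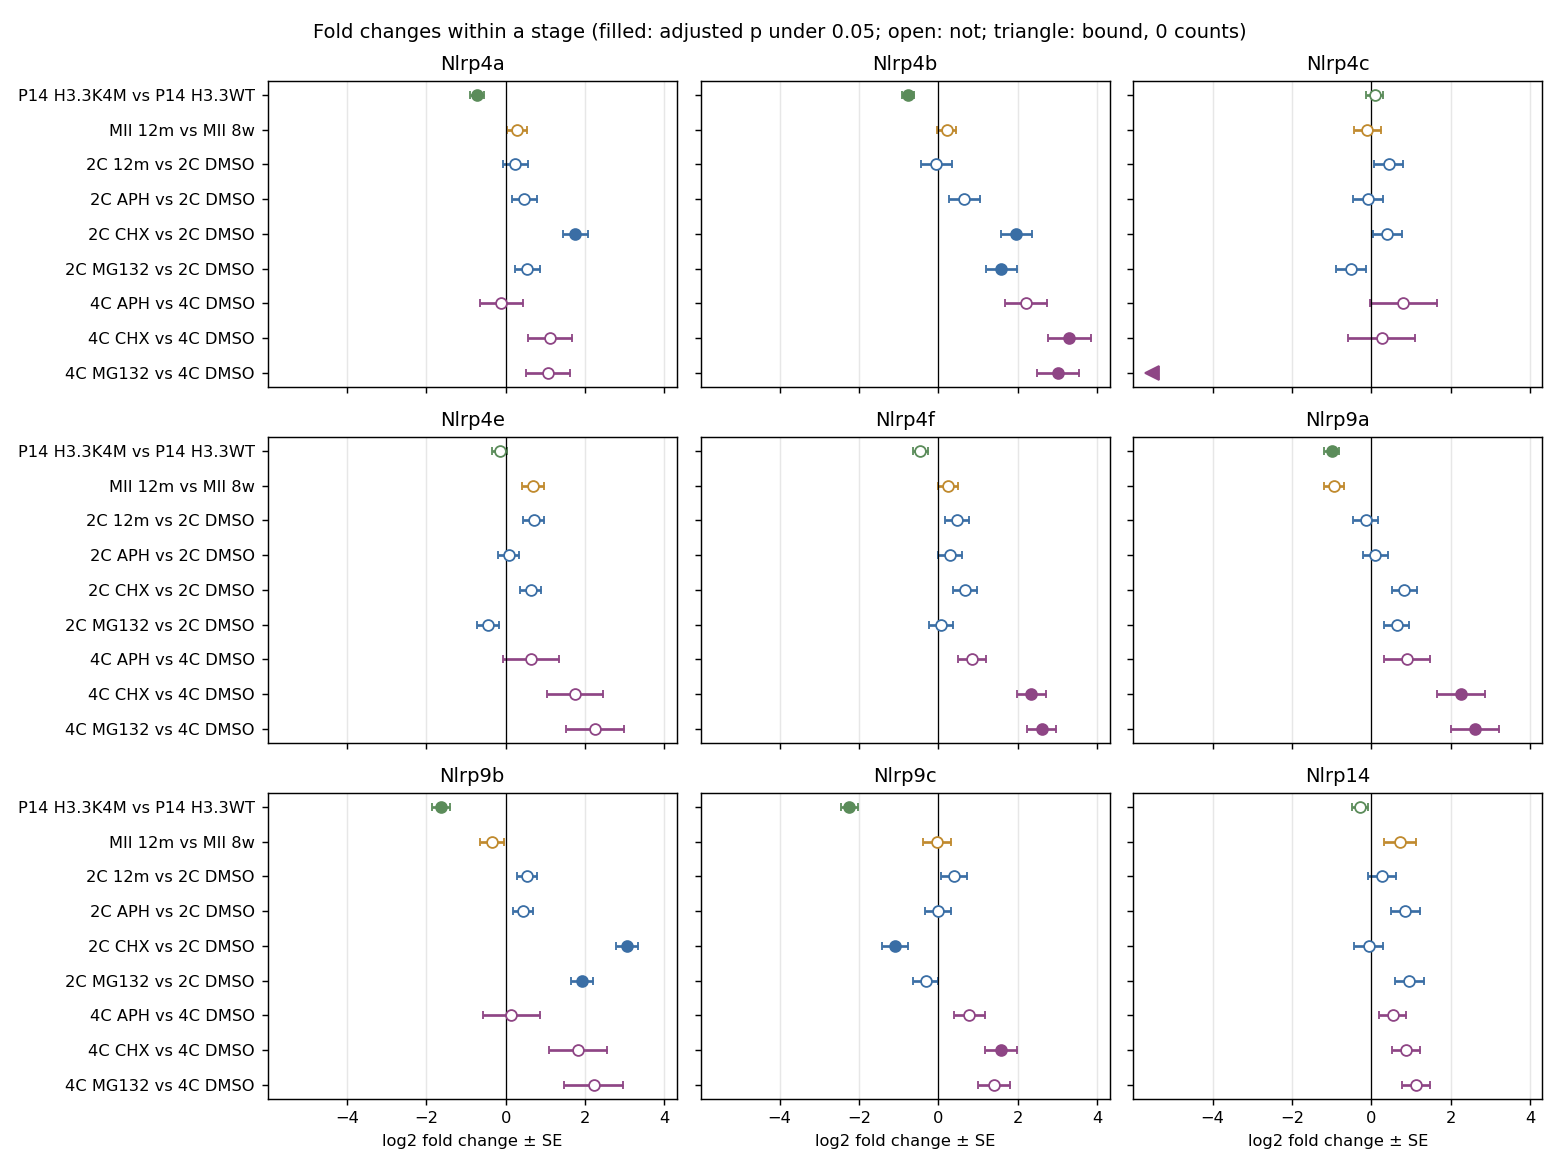
Log2 fold change ± SE of each gene (horizontal axis) in the 9 comparisons within oocytes and embryos (rows), with filled points for an adjusted p under 0.05 and a triangle for the bound on Nlrp4c, which had 0 counts in both 4C MG132 libraries. The 3 Nlrp9 panels share a filled point left of 0 for P14 H3.3K4M, while for 2C CHX Nlrp9b lies at 3.06 and Nlrp9c at -1.10.

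With maternal age, 0 of the 9 genes passed in mature oocytes and 0 in 2-cell embryos. Nlrp9a came nearest in oocytes, with 249 and 262 CPM in MII 12m, against 454 and 473 CPM in MII 8w (log2 fold change -0.94 ± 0.25, adjusted p = 0.16). Nlrp4e had 355 and 408 CPM in MII 12m oocytes, against 203 and 243 CPM in MII 8w oocytes (log2 fold change 0.69 ± 0.27, adjusted p = 0.30). In neither case did the libraries overlap, and these were the 2 genes of 9 at an unadjusted p under 0.05. DESeq2's Wald test called 1 of the 9, Nlrp9a (adjusted p = 0.032), and edgeR called it without MII 8w replicate 1 (adjusted p = 0.026) and without MII 8w replicate 2 (0.038). Of 15083 genes tested, 0.802% passed. The cumulus and granulosa markers summed to 109 and 157 CPM in MII 12m libraries, against 78.6 and 112 in MII 8w libraries, and their part in these values was not tested.

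In 2-cell embryos Nlrp4e had 551 and 472 CPM in 2C 12m, against 328 and 297 CPM in 2C DMSO, again without overlap (log2 fold change 0.71 ± 0.27, adjusted p = 0.27). It was the 1 gene of 9 at an unadjusted p under 0.05, and DESeq2's Wald test called 0. Log2 fold changes of the other 8 genes ran from -0.14 (Nlrp9a) to 0.54 (Nlrp9b). Of 22391 genes tested, 1.21% passed. The 2C 12m embryos are labelled as untreated and the younger ones as given DMSO, so age and vehicle cannot be told apart.

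In 2-cell embryos cycloheximide raised Nlrp9b, Nlrp4b and Nlrp4a and lowered Nlrp9c. Nlrp9b, the viral RNA sensor of the intestine, had 1774 and 1411 CPM in 2C CHX embryos, against 201 and 217 CPM in 2C DMSO embryos. It was 8.34-fold higher (log2 fold change 3.06 ± 0.28, adjusted p = 7.5e-05), and no other group of the series reached this level. Nlrp4a had 1695 and 1516 CPM in 2C CHX embryos, against 451 and 587 CPM in 2C DMSO embryos, and was 3.39-fold higher (log2 fold change 1.76 ± 0.32, adjusted p = 0.0024). Nlrp4b had 503 and 305 CPM in 2C CHX embryos, against 119 and 107 CPM in 2C DMSO embryos, and was 3.90-fold higher (log2 fold change 1.96 ± 0.40, adjusted p = 0.0046). For these genes both treated libraries lay above both vehicle libraries. Nlrp9c went the other way, with 792 and 603 CPM in 2C CHX embryos, against 1102 and 2192 CPM in 2C DMSO embryos (log2 fold change -1.10 ± 0.33, adjusted p = 0.031).

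The vehicle libraries differed by nearly as much for Nlrp9c as the treated libraries did from them. Its call was lost without 2C CHX replicate 1 (adjusted p = 0.05371), 2C CHX replicate 2 (0.1402) or 2C DMSO replicate 2 (0.3237), with a log2 fold change of -0.51 without 2C DMSO replicate 2, and with only the compared libraries in the fit (0.11). Nlrp9a (log2 fold change 0.83 ± 0.32, adjusted p = 0.078), Nlrp4f (log2 fold change 0.68 ± 0.30, adjusted p = 0.12) and Nlrp4e (log2 fold change 0.63 ± 0.27, adjusted p = 0.11) did not pass. Nlrp14 had 268 and 213 CPM in 2C CHX embryos, against 199 and 353 CPM in 2C DMSO embryos, which overlapped. The 3 higher genes of 9 compare with 11.0% of 22391 genes tested and the 1 lower gene with 13.0%. The median log2 fold change was 0.68 over the 9 genes and -0.26 over all genes.

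MG132 raised Nlrp9b and Nlrp4b. Nlrp9b had 751 and 779 CPM in 2C MG132 embryos, against the same 2C DMSO values (log2 fold change 1.93 ± 0.27, adjusted p = 0.0015), and was 3.80-fold higher. Nlrp4b had 365 and 282 CPM in 2C MG132 embryos and was 2.99-fold higher than in 2C DMSO (log2 fold change 1.58 ± 0.39, adjusted p = 0.027). The treated libraries stood above the vehicle libraries for both genes. Nlrp14 (log2 fold change 0.96 ± 0.36, adjusted p = 0.13), Nlrp9a (log2 fold change 0.64 ± 0.32, adjusted p = 0.23), Nlrp4a (log2 fold change 0.55 ± 0.31, adjusted p = 0.30) and Nlrp9c (log2 fold change -0.33 ± 0.33, adjusted p = 0.59) did not pass, and Nlrp4e, Nlrp4c and Nlrp4f lay between -0.52 and 0.06 on the log2 scale. The 2 higher genes of 9 compare with 5.10% of genes tested, and DESeq2 size factors moved the median of all genes by -0.13. The Nlrp4b call was lost without 2C MG132 replicate 1 (adjusted p = 0.1383), 2C DMSO replicate 1 (0.09335) or 2C DMSO replicate 2 (0.09767).

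Aphidicolin left 0 of the 9 genes called by edgeR at 2 cells, against 0.201% of genes tested, and 117 genes in place of 45 passed over all when the replicate number was added as a block. Nlrp14, at 437 and 584 CPM in 2C APH embryos against 199 and 353 CPM in 2C DMSO embryos, was the 1 gene at an unadjusted p under 0.05 (log2 fold change 0.86 ± 0.36, adjusted p = 0.45), and DESeq2's Wald test called 0. The 3 drug comparisons and the age comparison share the 2C DMSO libraries. The summed oocyte markers, 9 of 9 detected, were 5168 and 6213 CPM in 2C APH, 6660.4 and 10609 in 2C CHX and 6005 and 7738 in 2C MG132 libraries, against 4355 and 4649 in 2C DMSO libraries. The 5 markers of the 2-cell embryo, among them Zscan4c and Zscan4d, summed to 39.6 and 123 CPM in 2C APH, 2.76 and 4.13 in 2C CHX and 15.6 and 35.7 in 2C MG132 libraries, against 695 and 966 in 2C DMSO libraries. Tdpoz4, one of them, was at 0 in 2C CHX and 2C MG132. The part of these shifts in the NLRP values was not tested.

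At 4 cells cycloheximide raised Nlrp4b, Nlrp4f, Nlrp9a and Nlrp9c, all from low levels. Nlrp4f had 49.1 and 62.3 CPM in 4C CHX embryos, against 9.72 and 12.2 CPM in 4C DMSO embryos, and was 5.07-fold higher (log2 fold change 2.34 ± 0.36, adjusted p = 0.0033). Nlrp4b had 15.3 and 13.1 CPM in 4C CHX embryos, against 1.33 and 1.56 CPM in 4C DMSO embryos, and was 9.84-fold higher (log2 fold change 3.299 ± 0.54, adjusted p = 0.0042). Nlrp9c had 115 and 72.4 CPM in 4C CHX embryos, against 29.5 and 33.4 CPM in 4C DMSO embryos (log2 fold change 1.58 ± 0.40, adjusted p = 0.028). None of these groups overlapped, nor did those of Nlrp9a, at 6.25 and 11.1 CPM in 4C CHX embryos against 1.12 and 2.48 CPM in 4C DMSO embryos (log2 fold change 2.26 ± 0.60, adjusted p = 0.031). Nlrp9b (log2 fold change 1.82 ± 0.73, adjusted p = 0.11), Nlrp4e (log2 fold change 1.75 ± 0.72, adjusted p = 0.12), Nlrp4a (log2 fold change 1.11 ± 0.55, adjusted p = 0.18) and Nlrp14 (log2 fold change 0.87 ± 0.35, adjusted p = 0.11) did not pass, although Nlrp4e did with no low-count filter (adjusted p = 0.048) and Nlrp9b with only the compared libraries (0.044).

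The 4 higher genes of 9 compare with 8.77% of 22520 genes tested, with a median log2 fold change of 1.75 over the 9 genes and 0.44 over all genes. The Nlrp9a call was lost without 4C CHX replicate 2 (adjusted p = 0.1646), 4C DMSO replicate 1 (0.2015) or 4C DMSO replicate 2 (0.05793), and the Nlrp9c call without 4C CHX replicate 1 (adjusted p = 0.1186), 4C DMSO replicate 1 (0.1275) or 4C DMSO replicate 2 (0.09731). The summed oocyte markers moved the same way, at 184 and 188 CPM in 4C CHX and 181 and 305 in 4C MG132 libraries, against 106 and 123 in 4C DMSO libraries, and the 2-cell embryo markers were also higher. These summed to 200.2 and 337 CPM in 4C CHX and 109 and 124 in 4C MG132 libraries, against 24.6 and 47.8 in 4C DMSO libraries. The 7 pluripotency markers summed to 1412 and 1483 CPM in 4C CHX and 2779 and 3613 in 4C MG132 libraries, against 4306 and 5175 in 4C DMSO libraries. The 14 cumulus and granulosa markers, with Amh, Fshr and Ptx3 at 0 in these groups, summed to 14.4 and 16.5 CPM in 4C CHX and 52.1 and 85.3 in 4C MG132 libraries, against 331 and 344 in 4C DMSO libraries. Most of the 4C DMSO sum came from 1 of them, Gja1, and 8 of the 14 were at 0 there. Scaled by TMM, Gja1 had 379 and 351 CPM in 4C DMSO, 0.915 and 2.10 in 4C CHX and 40.3 and 76.9 in 4C MG132 libraries. The sum is therefore no measure of granulosa cells at this stage. The 5 macrophage and blood markers, with Adgre1 at 0 in these groups, Ptprc at 0 in 4C CHX and 4C MG132 and Hbb-bs at 0 in 4C CHX and 4C DMSO, summed to 262 and 284 CPM in 4C CHX and 9.26 and 16.7 in 4C MG132 libraries, against 22.3 and 41.0 in 4C DMSO libraries. The part of these shifts in the NLRP values was not tested.

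MG132 raised Nlrp4f, Nlrp4b and Nlrp9a at 4 cells, and Nlrp4c was not detected. Nlrp4f had 85.8 and 47.6 CPM in 4C MG132 embryos and was 6.08-fold higher than in the same 4C DMSO libraries (log2 fold change 2.60 ± 0.37, adjusted p = 0.0073). Nlrp4b had 8.95 and 14.3 CPM (log2 fold change 3.01 ± 0.54, adjusted p = 0.015) and Nlrp9a 12.3 and 9.71 CPM (log2 fold change 2.61 ± 0.61, adjusted p = 0.037) in 4C MG132 embryos. Treated libraries lay above vehicle libraries for these genes. Nlrp4c had 0 counts in both 4C MG132 libraries, against 78 and 57 counts in 4C DMSO, 155 and 54 in 4C CHX and 102 and 188 in 4C APH libraries. Against the floor that 3 counts over the group would give, it was at least 46.2-fold lower in 4C MG132 than in 4C DMSO embryos (adjusted p = 0.013).

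The 3 higher genes of 9 with MG132 compare with 3.06% of genes tested and the 1 lower with 4.33%. A further 4 genes had an unadjusted p under 0.05 without passing: Nlrp4e (log2 fold change 2.26 ± 0.73, adjusted p = 0.098), Nlrp9b (log2 fold change 2.22 ± 0.74, adjusted p = 0.11), Nlrp9c (log2 fold change 1.40 ± 0.40, adjusted p = 0.071) and Nlrp14 (log2 fold change 1.13 ± 0.35, adjusted p = 0.088). DESeq2's Wald test called 8 of the 9, these 4 included. Of these 4, Nlrp4e and Nlrp9c also passed with no low-count filter (adjusted p = 0.010 and 0.0022), Nlrp4e, Nlrp9c and Nlrp14 with the stricter filter (0.047, 0.033 and 0.045) and Nlrp9c with only the compared libraries (0.025). Without 4C DMSO replicate 1 the Nlrp4b call was lost (adjusted p = 0.081), as it was without 4C DMSO replicate 2 (0.077). The Nlrp9a call was lost without 4C MG132 replicate 1 (adjusted p = 0.1107), 4C MG132 replicate 2 (0.06533), 4C DMSO replicate 1 (0.1978) or 4C DMSO replicate 2 (0.0804). With aphidicolin 0 of 9 genes passed at 4 cells, against 0% of genes tested. There 2 of the 9 had an unadjusted p under 0.05, Nlrp4b, at 4.67 and 8.58 CPM in 4C APH embryos (log2 fold change 2.20 ± 0.52, adjusted p = 0.52), and Nlrp4f, at 20.2 and 18.9 CPM (log2 fold change 0.84 ± 0.35, adjusted p = 0.60), and DESeq2's Wald test called Nlrp4b (adjusted p = 0.019). The 3 drug comparisons share the 4C DMSO libraries.

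The drug effects at 4 cells and at 2 cells were compared by testing the 4-cell effect minus the 2-cell effect in 1 fit of all 26 oocyte and embryo libraries. For cycloheximide the difference passed for 4 of 9 genes, each higher at 4 cells, against 18.1% of 27657 genes. It was 2.81 ± 0.53 for Nlrp9c (adjusted p = 0.00057), 1.80 ± 0.41 for Nlrp4f (adjusted p = 0.0030), 1.57 ± 0.50 for Nlrp9a (adjusted p = 0.026) and 1.46 ± 0.50 for Nlrp4b (adjusted p = 0.035) on the log2 scale. The median difference was 1.29 over all genes tested and 1.25 over the 9, so the Nlrp9a and Nlrp4b differences lay near the median of all genes. DESeq2 size factors moved the median of all genes by -0.11. Nlrp9c was lower with the drug at 2 cells and higher with it at 4 cells. Nlrp9b, at -1.11 ± 0.59, did not pass (adjusted p = 0.18).

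For MG132 the difference passed for 6 of 9 genes, 5 higher at 4 cells against 8.96% of genes and 1 lower against 5.84%. It was 2.77 ± 0.61 for Nlrp4e (adjusted p = 0.0039), 2.60 ± 0.41 for Nlrp4f (adjusted p = 0.00028), 2.03 ± 0.50 for Nlrp9a (adjusted p = 0.0088), 1.78 ± 0.52 for Nlrp9c (adjusted p = 0.025) and 1.49 ± 0.50 for Nlrp4b (adjusted p = 0.048). Nlrp4c was the lower gene, through its 0 counts at 4 cells (adjusted p = 7.4e-05). The median difference over all genes was 0.46, and DESeq2 size factors moved it by 0.11. For aphidicolin the difference passed for 0 of the 9 genes, against 0.401% of genes tested, with 1 of 9 at an unadjusted p under 0.05, and DESeq2's Wald test called 0.

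Several of these differences rested on single libraries or on the processing. For cycloheximide the Nlrp4b call was lost without 2C CHX replicate 2, 2C DMSO replicate 1, 2C DMSO replicate 2, 4C CHX replicate 1, 4C DMSO replicate 1 or 4C DMSO replicate 2 (adjusted p = 0.0517 to 0.143), and the Nlrp9a call without 2C CHX replicate 2, 2C DMSO replicate 2, 4C CHX replicate 2 or 4C DMSO replicate 1 (adjusted p = 0.0997 to 0.157). The Nlrp4b call was also lost with DESeq2 size factors (adjusted p = 0.065), with no low-count filter (0.093), with library sizes from genes only (0.060) and with only the compared libraries (0.084). The Nlrp9a call was also lost with no low-count filter (adjusted p = 0.060) and with only the compared libraries (0.16). For MG132 the Nlrp4b call was lost without 2C MG132 replicate 1, 2C MG132 replicate 2, 2C DMSO replicate 1, 2C DMSO replicate 2, 4C MG132 replicate 2, 4C DMSO replicate 1 or 4C DMSO replicate 2 (adjusted p = 0.0685 to 0.202). The Nlrp9a call was lost without 2C DMSO replicate 2 or 4C DMSO replicate 1 (adjusted p = 0.0557 to 0.0663), and the Nlrp9c call without 2C MG132 replicate 1, 2C DMSO replicate 2, 4C MG132 replicate 1, 4C DMSO replicate 1 or 4C DMSO replicate 2 (adjusted p = 0.0547 to 0.154). The Nlrp4e difference was 4.23 without 4C DMSO replicate 2, and its call was lost with only the compared libraries (adjusted p = 0.0511). The Nlrp4b call for MG132 was also lost with no low-count filter (adjusted p = 0.059) and with the replicate number as a block (0.0506). It was lost too with library sizes from genes only (adjusted p = 0.055) and with only the compared libraries (0.057).

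**Figure D4:**
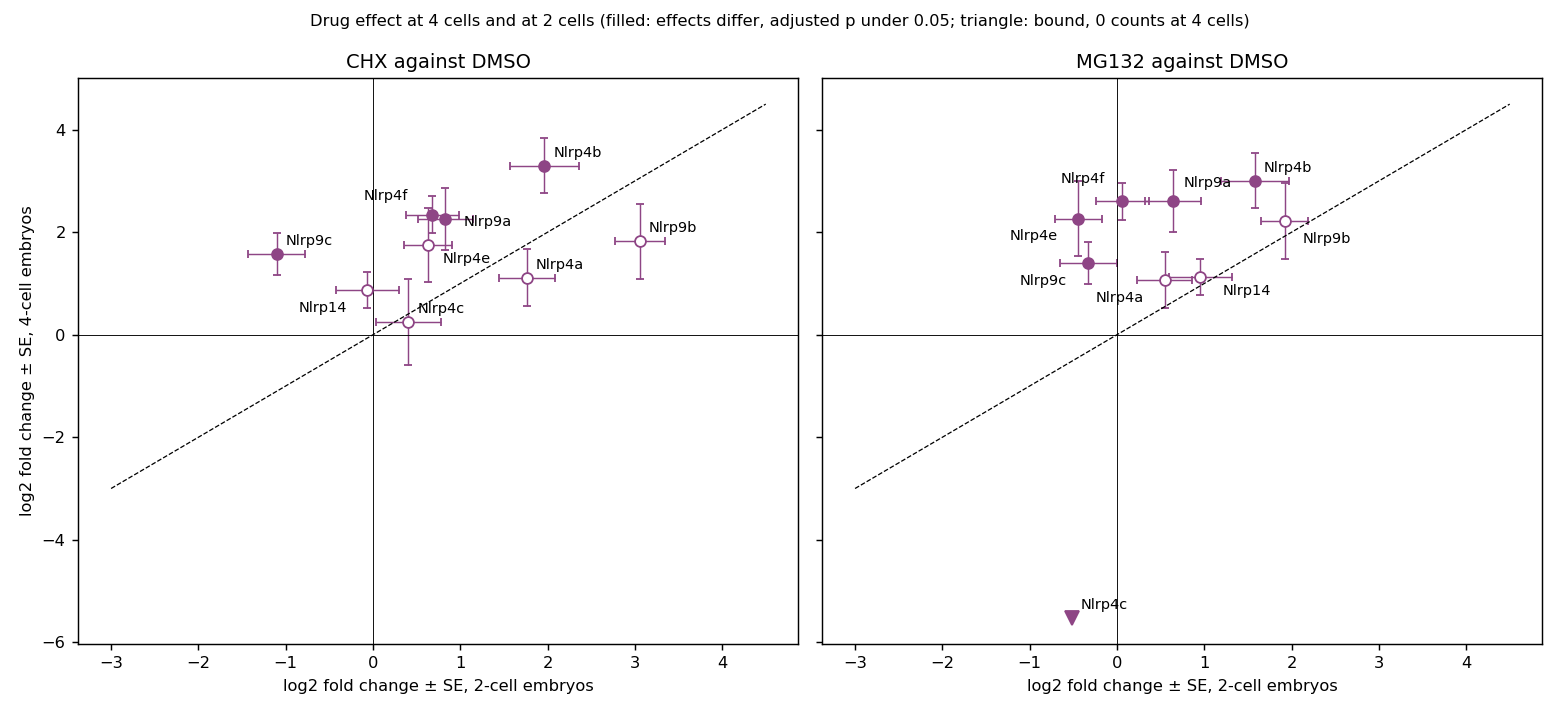
Log2 fold change ± SE against DMSO at 4 cells (vertical axis) and at 2 cells (horizontal axis) for each gene, with cycloheximide on the left and MG132 on the right and a dashed line where both are equal. Filled points mark genes whose 2 effects differed at an adjusted p under 0.05, and the triangle marks the bound on Nlrp4c. Nlrp9c lies at -1.10 on the horizontal and 1.58 on the vertical axis with cycloheximide.

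In the stem cells the highest group mean of the 9 genes was 8.56 CPM, for Nlrp4f in ESC MG132. Nlrp4b, Nlrp4e and Nlrp9a had 0 counts in all 6 libraries, with 3 counts over a group corresponding to 0.0682 to 0.0709 CPM. Only 5 genes passed the filter on low counts. Nlrp4f had 0.477 and 0.915 CPM in ESC CHX, against 7.28 and 6.40 CPM in ESC DMSO, and was 9.65-fold lower (log2 fold change -3.27 ± 0.27, adjusted p = 0.00047). Nlrp4c had 0.810 and 0.915 CPM in ESC CHX (log2 fold change -1.13 ± 0.24, adjusted p = 0.012) and 4.90 and 4.82 CPM in ESC MG132 (log2 fold change 1.36 ± 0.19, adjusted p = 0.020), against 2.04 and 1.75 CPM in ESC DMSO. These libraries did not overlap. Nlrp9b, at 0.238 and 0.305 CPM in ESC CHX against 0.631 and 0.691 CPM in ESC DMSO, also passed (log2 fold change -1.26 ± 0.38, adjusted p = 0.042), but not with DESeq2's Wald test (adjusted p = 0.23) or with no low-count filter (0.076). The 3 lower genes of 5 with cycloheximide compare with 13.4% of 18696 genes tested, and the 1 higher gene with MG132 with 1.90%. Both comparisons share the ESC DMSO libraries. With cycloheximide the Nlrp4c call was lost without ESC CHX replicate 1, ESC CHX replicate 2, ESC DMSO replicate 1 or ESC DMSO replicate 2 (adjusted p = 0.0615 to 0.117), and the Nlrp9b call without ESC CHX replicate 1, ESC CHX replicate 2, ESC DMSO replicate 1 or ESC DMSO replicate 2 (adjusted p = 0.161 to 0.245). With MG132 the Nlrp4c call was lost without ESC DMSO replicate 1 or ESC DMSO replicate 2 (adjusted p = 0.223 to 0.284), and with only the compared libraries (adjusted p = 0.10).

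Other genes of the family and its partners were read from lists. Of the other reproductive NLRP genes, Nlrp2, Nlrp4g and Nlrp5 were measured and Nlrp4d was too low to test. With H3.3K4M edgeR called 0 of these 3, beside 3444 of 15386 genes tested, with 1 of the 3 at an unadjusted p under 0.05. Between MII 8w and P14 H3.3WT oocytes Nlrp5, a core member of the subcortical maternal complex, fell (log2 fold change -3.28 ± 0.52, adjusted p = 5.8e-05) and Nlrp4g rose (1.20 ± 0.37, adjusted p = 0.017). Nlrp5 rose in 2C CHX (1.81 ± 0.40, adjusted p = 0.0077) and 2C MG132 embryos (2.20 ± 0.41, adjusted p = 0.0066) against 2C DMSO embryos. Between 4C DMSO and 2C DMSO embryos all 3 fell, at -6.98 ± 0.47 for Nlrp4g, -4.20 ± 0.66 for Nlrp2 and -3.97 ± 0.55 for Nlrp5 on the log2 scale. Over all genes tested 24.1% were lower there.

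Of 9 genes of the subcortical maternal complex and reported binders of NLRP proteins, 5 rose and 0 fell in 2C CHX embryos against 2C DMSO embryos. These were Dnmt1, the maintenance DNA methyltransferase (4.48 ± 0.32, adjusted p = 3.9e-05), Ooep (3.13 ± 0.54, adjusted p = 0.0018), Tle6, Padi6 and Uhrf1, and the median log2 fold change of the list was 1.53, beside 11.0% of genes tested that were higher. In 2C MG132 embryos 4 rose and 0 fell, with a median of 1.24, beside 5.10% of genes tested that were higher. With H3.3K4M 2 of 8 tested rose, Khdc3 (1.18 ± 0.19, adjusted p = 0.00072) and Ooep (0.65 ± 0.19, adjusted p = 0.028), beside 1329 of 15386 genes tested that were higher. Of 17 innate-immune NLR genes, 3 passed the low-count filter in growing oocytes, and 1 fell with H3.3K4M, Naip1 (-2.76 ± 0.24, adjusted p = 8.7e-06), a sensor of bacterial proteins, beside 13.7% of genes tested that were lower. In 2C CHX embryos 1 of 12 tested rose and 3 fell, beside 11.0% of genes tested that were higher and 13.0% that were lower. Of 8 inflammasome partners, 6 were tested at 2 cells. Txnip, a regulator of redox state that also binds Nlrp3, was the 1 that rose in 2C CHX (2.98 ± 0.33, adjusted p = 0.00018) and in 2C MG132 embryos (3.65 ± 0.34, adjusted p = 0.00023). Over all genes tested 11.0% and 5.10% were higher, and 0 of the partners fell there. With H3.3K4M 0 of 4 partners tested passed, beside 3444 of 15386 genes tested, and 2 had an unadjusted p under 0.05. Nlrp3, the best known inflammasome former, was at 0 in the P14 H3.3K4M, MII 12m, MII 8w and 2C CHX groups. Its group mean was at most 0.366 CPM (4C MG132) in the other oocyte and embryo groups and at most 1.29 CPM (ESC MG132) in the stem cells.

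Over the 16 group means, as log2(CPM + 1), the mean profile of the 9 genes, each centred, was most like that of Tgfb2 (Pearson r = 0.994), followed by Nlrp4g (0.992), Wee2 (0.991), Bmp15 (0.989) and Trappc3l (0.989), among 12027 genes with at least 10 CPM in a group. Nlrp14 was most like Fbxw15 (r = 0.991) and Nlrp5 (0.990), Nlrp9c like Oosp3 (0.990) and Oog3 (0.990), Nlrp9b like Erich5 (0.984) and Nlrp4b like Bmpr1b (0.991). Nlrp4c had the least close match, Cenpx (0.947). Between members r ran from 0.727 to 0.994 over the 16 groups and from -0.921 to 0.966 over the 9 groups before the 4-cell stage. The groups share libraries' depth and the drop at 4 cells, and these correlations carry no test.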

How the data were processed

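RNA of 32 libraries was deposited as whole-number read counts for 55335 genes and 1153 repeat elements per library. Per the submitters' processing notes, reads were trimmed with cutadapt 1.16 and aligned with STAR to mm10. Neither the counting tool, its strand setting nor its handling of multiply matching reads is given in the sources used here. Gene names came from GENCODE M21, in which 55154 identifiers matched without their version, and promoter windows from RefSeq.

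The deposited counts were tested with edgeR 4.0.16 in R 4.3.3, using the quasi-likelihood F-test with robust dispersions, TMM over genes and repeats, and a low-count filter (minimum count 10, minimum total 15). P-values were adjusted over all genes tested (Benjamini-Hochberg), with a threshold of 0.05. P14, MII, 2-cell, 4-cell and stem cell libraries were fitted separately within a stage. Comparisons between stages and differences of comparisons used 1 fit of 26 oocyte and embryo libraries, a number written as 28 by mistake in the test plan. The SE is the log2 fold change divided by the square root of F. A group at 0 counts was set at a floor of 3 counts over the group. CPM in the text are scaled by TMM, and marker sums are CPM of library totals.

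Each result was recomputed with DESeq2 1.42.0 (its size factors, then its Wald test), without the low-count filter or with a stricter one (5 CPM in 2 libraries), with the replicate number as a block, with only genes in the library sizes, with only the compared libraries, and without each library. Leave-one-out refits of the 26-library fit kept its dispersion trend. On simulated counts with 200 genes changed 4-fold, 100% were recovered for P14 H3.3K4M, 57% for MII 12m, 55% for 2C CHX, 47% for 4C CHX, 100% for ESC CHX and 39.5% for 2C DMSO against MII 8w. The changed genes had an expected count above 100, the groups otherwise shared a mean for each gene, and the spread followed the dispersion trend. Recovery of genes with fewer counts or a spread off the trend was not tested. Replicate numbers come from the labels, and no label says that they pair libraries. Over 6354 genes, deviations from the group mean in the 2-cell groups given a drug or DMSO correlated, between libraries with the same number, at 0.230 to 0.490, so these were taken as paired. The main tests, including those of these 2-cell groups, had no replicate block, and the pairing entered only the recomputation with a block.

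All 9 genes are named, and of the gene lists those called or standing beside a member's value. The genes, lists and comparisons were chosen with earlier results of these data known.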

Additional observations from a re-analysis of the deposited data

Results flagged for a closer look

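The effects of 2 drugs differed between 4-cell and 2-cell embryos for some of the 9 genes, by edgeR's test of the difference itself over all genes. The values below are the 4-cell effect minus the 2-cell effect on the log2 scale. With cycloheximide the difference was 2.81 for Nlrp9c, 1.80 for Nlrp4f, 1.57 for Nlrp9a and 1.46 for Nlrp4b. With MG132 it was 2.77 for Nlrp4e, 2.60 for Nlrp4f, 2.03 for Nlrp9a, 1.78 for Nlrp9c and 1.49 for Nlrp4b. Nlrp4c, which had 0 counts in both 4C MG132 libraries, differed with an adjusted p of 7.4e-05 in edgeR's quasi-likelihood test, and no fitted size is given for it. All genes tested had a median difference of 1.29 with cycloheximide and 0.46 with MG132. Only the Nlrp9c and Nlrp4f calls with cycloheximide and the Nlrp4f and Nlrp4c calls with MG132 held under every alternative run. The other calls were each lost under some alternative, as given above.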

How the results depend on the processing

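The counts that follow cover only results that were called, or had an unadjusted p under 0.05, in the main run. Calls gained or directions reversed among the other results are not counted. Of 978 recomputed fold changes of the covered results, 845 kept their direction and their side of the threshold. A further 101 kept the direction and lost the call, 32 gained a call and 0 reversed. Of 60 called results, 33 kept their call under every alternative run, among them the 9 falls between 4C DMSO and 2C DMSO. Counts of the 9 genes called that moved by more than 1.5 times come first, with the cause not tested. DESeq2's Wald test called 1 in place of 0 for MII 12m against MII 8w and for 4C APH, 8 in place of 4 for 4C MG132 and 5 in place of 3 for 2C CHX against MII 8w. The filter of 5 CPM in 2 libraries gave 7 in place of 4 for 4C MG132, 1 in place of 3 for ESC CHX and 0 in place of 1 for ESC MG132, where it left fewer of the 9 to test. With only the libraries compared in the fit, the count was 0 in place of 1 for ESC MG132, 1 in place of 3 for 2C DMSO against MII 8w, 4 in place of 2 for 2C 12m against MII 12m and 1 in place of 2 for 2C APH against MII 8w. Smaller moves were 7 in place of 6 for MII 8w against P14 H3.3WT (DESeq2 size factors, the Wald test, no low-count filter, the stricter filter, library sizes from genes only, only the libraries compared), 3 in place of 4 for the cycloheximide difference (DESeq2 size factors, no low-count filter, library sizes from genes only, only the libraries compared), and for the MG132 difference 5 in place of 6 (no low-count filter, library sizes from genes only) and 4 (only the libraries compared). No low-count filter gave 5 in place of 4 for 4C CHX, 6 in place of 4 for 4C MG132, 2 in place of 3 for ESC CHX, 3 in place of 2 for 2C 12m against MII 12m and 4 in place of 3 for 2C CHX against MII 8w. Only the libraries compared gave 3 in place of 4 for 2C CHX, 5 in place of 4 for 4C CHX and for 4C MG132 and 2 in place of 3 for 2C CHX against MII 8w, and the Wald test 2 in place of 3 for ESC CHX. Leaving out each library in turn gave 4 to 6 of the 9 (5 with all libraries) for P14 H3.3K4M, 0 to 2 (0) for MII 12m against MII 8w, 0 to 0 for 2C 12m, 2C APH and 4C APH against DMSO, 3 to 4 (4) for 2C CHX, 1 to 2 (2) for 2C MG132, 2 to 3 (4) for 4C CHX, 2 to 3 (4) for 4C MG132, 1 to 1 (3) for ESC CHX and 0 to 2 (1) for ESC MG132. Between stages it gave 3 to 5 (6) for MII 8w against P14 H3.3WT, 1 to 3 (3) for 2C DMSO against MII 8w, 1 to 2 (2) for 2C 12m against MII 12m, 0 to 2 (2) for 2C APH, 2 to 3 (3) for 2C CHX and 0 to 2 (2) for 2C MG132 against MII 8w, and 9 to 9 for 4C DMSO against 2C DMSO. For the differences between stages it gave 2 to 4 (4) with cycloheximide, 3 to 5 (6) with MG132 and 0 to 0 with aphidicolin and with age. A refit that left 1 library in a group assumes that it varies like the other groups.

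With a replicate block the 2-cell drug comparisons, taken as paired, kept 4 of the 9 genes called for 2C CHX, 2 for 2C MG132 and 0 for 2C APH. The libraries of the other stages share only a number. There the block gave 5 for P14 H3.3K4M, 2 in place of 3 for ESC CHX, 1 in place of 2 for 2C APH against MII 8w and 5 in place of 6 for the MG132 difference, and it changed no other count of the 9. The calls lost with the block were Nlrp9b for ESC CHX, Nlrp9c for 2C APH against MII 8w and Nlrp4b for the MG132 difference. Same-numbered libraries correlated at -0.0285 to 0.171 at 4 cells and 0.0595 to 0.231 in the stem cells. They correlated at -0.563 for P14 and -0.245 for MII, and a crossed pairing chosen after seeing the data called 6 of the 9 and 5727 genes for P14 H3.3K4M and 0 of the 9 and 124 genes for MII 12m, in place of 3444 and 121 genes.

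Over all genes the count called was more sensitive. DESeq2's Wald test called 1017 in place of 121 genes for MII 12m, 1106 in place of 272 for 2C 12m, 595 in place of 45 for 2C APH, 3620 in place of 2188 for 2C MG132, 264 in place of 0 for 4C APH, 6755 in place of 4289 for 4C CHX and 4050 in place of 1663 for 4C MG132. With no low-count filter these were 788 for MII 12m, 962 for 2C 12m, 615 for 2C APH, 347 for 4C APH, 3463 for 4C MG132 and 1336 in place of 606 for ESC MG132. The 5 CPM filter gave 1463 in place of 3444 for P14 H3.3K4M, 93 for 2C APH, 2548 for 4C MG132 and 3106 in place of 5042 for ESC CHX. With only the libraries compared the counts were 116 for 2C 12m, 0 for 2C APH, 3359 in place of 5368 for 2C CHX, 7167 for 4C CHX, 10640 for ESC CHX and 16 for ESC MG132, and a block gave 188 for MII 12m, 438 for 2C 12m and 203 for ESC MG132. In the stem cells several of the 9 genes had few or 0 counts.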
